A study of Mus musculus with 6 samples.

Results

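The genes described here encode the SCF ubiquitin ligase and the F-box proteins that serve as its substrate receptors, measured in mouse liver. Members were taken by gene symbol alone: every gene named Fbxl, Fbxo or Fbxw with a number, together with Skp1, Skp2, Cul1, Rbx1, Btrc, Ccnf and Cand1. The rule found 73 of the 18193 genes measured, with 135 probe sets, each a set of short oligonucleotides designed against a transcript. Livers came from C57BL/6 mice of 6 to 8 weeks, all labelled male and given no treatment, and the comparison asked how hepatic expression differs when HLJ1 is missing. HLJ1 is the DnaJ-family co-chaperone encoded by Dnajb4. Wild-type (Dnajb4+/+) mice were compared with HLJ1 knockout (Dnajb4-/-) mice, a whole-animal loss made by gene targeting in embryonic stem cells, with 3 independent mice per genotype by the labels and 1 Affymetrix array for each. Precision is limited by these 6 arrays.

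An SCF ligase is built on the scaffold Cul1, a cullin. One end of Cul1 holds the RING protein Rbx1, which brings in the ubiquitin-carrying E2 enzyme, and the other end holds the adaptor Skp1, which binds the F-box of an exchangeable receptor. The receptor picks the protein to be marked with ubiquitin, often only after a kinase has phosphorylated it, and so decides which protein is sent to the proteasome. Fbxw proteins bind substrates through WD40 repeats, Fbxl proteins through leucine-rich repeats, and Fbxo proteins through other domains. Cul1 works when the small protein Nedd8 is attached to it, and Cand1 exchanges the receptors on the unmodified form. In liver, as in other tissues, SCF ligases set the lifetime of cell cycle inhibitors, cyclins, clock repressors and regulators of iron and lipid metabolism. The arrays measured RNA, so ligase activity and the levels of these proteins were not measured.

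Signs of sex, RNA quality and cell make-up differed between the genotypes and stand beside every result below. The deposited values are normalized intensities on a linear scale, with array medians of 31.8 to 32.5. Xist, the RNA that silences an X chromosome in female cells, read 364 to 402 in the arrays labelled Dnajb4+/+ and 14.3 to 17.1 in the Dnajb4-/- arrays. In those same Dnajb4+/+ arrays, Eif2s3y, Kdm5d and Uty, all on the Y chromosome, reached 77.9% to 102% of their Dnajb4-/- average. Eif2s3y averaged 68.7 in Dnajb4+/+ and 79.5 in Dnajb4-/- arrays. Kdm5d (25.5 against 25.8) and Uty (20.2 against 24.3) lay under the array medians in both genotypes, where similar readings can also come from background. The Y-linked signal thus rests mainly on Eif2s3y. With that limit, all 3 Dnajb4+/+ arrays carried both signals, which goes against the label of single male mice, so no comparison could be made without them. Dnajb4 itself averaged 137 ± 5.51 against 124 ± 6.85 in the knockout (SD, n = 3), and its log2 difference of -0.14 did not pass the test (adjusted p = 0.145, limma), and whether its probe sets lie in the deleted part is not given in the sources used here. The 3' to 5' signal ratio, which rises as RNA degrades, was 1.17 ± 0.0134 against 1.45 ± 0.0265 for Gapdh and 2.65 ± 0.0485 against 3.17 ± 0.0602 for Actb (SD, n = 3). The hepatocyte markers were bright in every array, with a summed signal of 146118 to 147007 in Dnajb4+/+ and 144714 to 145997 in Dnajb4-/- livers over 9 genes, of which 2 were higher and 1 lower. The part of these differences in the results below was not tested.

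Of the 73 SCF genes, 5 passed the test between genotypes, 4 of them lower and 1 higher in Dnajb4-/- livers. The lower genes were Fbxo31, Fbxo34, Fbxo21 and Fbxo9, and the higher gene was Ccnf, which encodes cyclin F. The test was limma's moderated test on log2 values averaged over the probe sets of each gene, with p-values adjusted over all 18193 genes at a threshold of 0.05, and a gene that passed it is called below. All differences are Dnajb4-/- minus Dnajb4+/+ on the log2 scale. The calls made up 6.85% of the SCF genes, beside 14.7% of all genes tested. In single directions the background was 5.09% higher and 9.57% lower. The median difference was 0.0040 over the SCF genes and 0.0075 over all genes, and the median size was 0.0863 and 0.0841. Differences ran from -0.47 for Fbxo31 to 0.37 for Ccnf, and 41 of the SCF genes differed by 0.1 or less in either direction. Without adjustment, 20 of the SCF genes (27.4%) had a p under 0.05, beside 29.5% of all genes. The genotypes did not overlap for 25 SCF genes (34.2%), 13 with all Dnajb4-/- arrays above and 12 with all below, beside 35.5% of all genes.

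**Figure D1:**
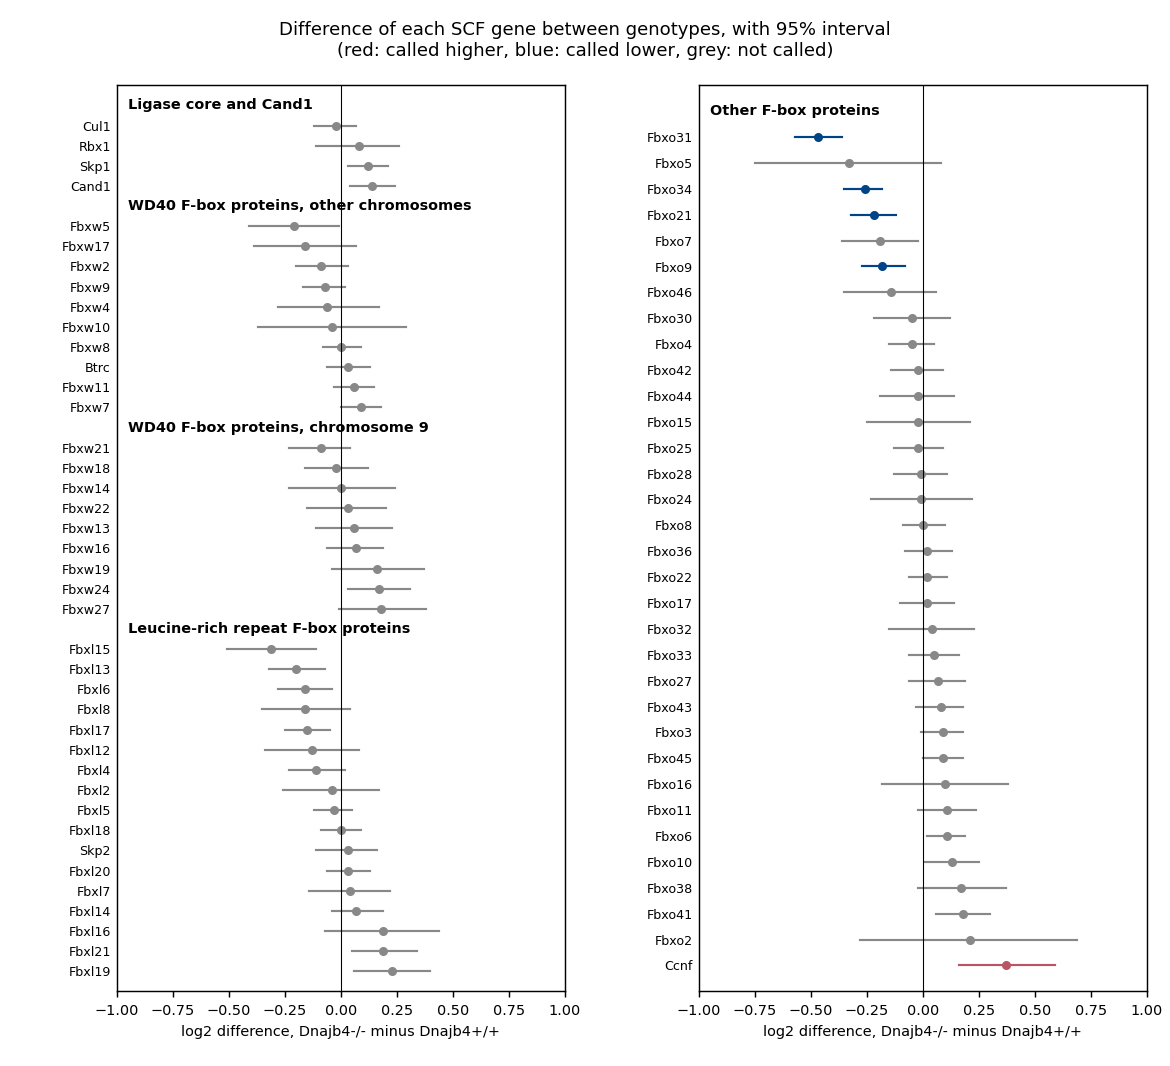
Log2 difference between genotypes (Dnajb4-/- minus Dnajb4+/+, x axis) for each of the 73 SCF genes, grouped by role and sorted within each group, with points for the difference and bars for its 95% interval (limma, n = 3 per genotype). All 5 coloured genes stand among the other F-box proteins, with Fbxo31 at -0.47 and Ccnf at 0.37, while the intervals of most other genes include or lie close to 0.

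Dim genes were rarely called on these arrays. Among the 43 SCF genes above the median signal of all genes (43.5), the 5 called genes made up 11.6%, beside 23.6% of all genes above that signal. The other 30 SCF genes lay at or below it and none was called by limma, beside 5.75% of all such genes; 4 had an unadjusted p under 0.05, and the methods' t-test called 0. Signals of different probe sets depend on their probes, so they are not compared below as amounts of transcript.

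Sequence just upstream of the start of each called gene is shown because these 5 genes passed the test between genotypes. The lines give the 150 bases before the transcription start, 5′ to 3′ on the strand of the gene, from RefSeq on GRCm38.p6, with GC boxes (GGGCGG) and CCAAT boxes in capitals on either strand. Fbxo31 lies at chr8:121578807-121578956 on the minus strand, Fbxo34 at chr14:47472411-47472560 on the plus strand, Fbxo21 at chr5:117976620-117976769 on the plus strand, Fbxo9 at chr9:78109066-78109215 on the minus strand and Ccnf at chr17:24251410-24251559 on the minus strand. For Fbxo9, which has 2 listed starts, the one farthest upstream was used.
Fbxo31: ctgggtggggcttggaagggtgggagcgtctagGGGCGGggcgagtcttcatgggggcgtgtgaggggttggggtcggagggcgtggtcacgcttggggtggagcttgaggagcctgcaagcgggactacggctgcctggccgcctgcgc
Fbxo34: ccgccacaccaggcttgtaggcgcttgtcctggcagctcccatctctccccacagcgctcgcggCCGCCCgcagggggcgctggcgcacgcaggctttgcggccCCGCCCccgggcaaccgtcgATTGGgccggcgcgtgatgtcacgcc
Fbxo21: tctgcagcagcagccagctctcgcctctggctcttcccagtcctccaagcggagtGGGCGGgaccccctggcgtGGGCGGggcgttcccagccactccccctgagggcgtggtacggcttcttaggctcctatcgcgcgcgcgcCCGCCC
Fbxo9: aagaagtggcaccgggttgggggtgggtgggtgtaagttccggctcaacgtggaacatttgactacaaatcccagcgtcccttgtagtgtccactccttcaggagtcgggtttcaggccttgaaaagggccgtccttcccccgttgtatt
Ccnf: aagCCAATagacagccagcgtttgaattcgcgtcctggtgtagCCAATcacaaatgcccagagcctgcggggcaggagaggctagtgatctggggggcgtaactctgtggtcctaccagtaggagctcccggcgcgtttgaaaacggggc
Among the called genes, the 3 with the largest falls, Fbxo31, Fbxo34 and Fbxo21, have a GC content of 70.7%, 74.7% and 72.0% in these bases and hold 1, 2 and 3 GC boxes. Fbxo9 (55.3%) holds neither box, and Ccnf (58.7%) holds 2 CCAAT boxes and no GC box in the bases shown. The median GC content of the same bases was 61.3% over the 77 windows found for 55 SCF genes and 54.0% over all 32851 windows of the table.

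Motifs were then counted on both strands in the full windows, from 250 bases before to 50 after the start. The GC box was in 46 SCF windows (59.7%) and in 35.7% of all windows, and the CCAAT box in 21 (27.3%) and in 37.4%. In these longer windows Ccnf also has a GC box and Fbxo9 a CCAAT box, so the contrast among the called genes holds only for the bases shown above. These 2 motifs were added after the sequences were seen. The E-box CACGTG, read by the clock activators Clock and Bmal1, was in 5 windows (6.49%; Cul1, Fbxl2, Fbxo10 and Fbxo7) and in 7.15% of all. The D-box (TTACGTAA or TTATGTAA) of the Dbp family was in 0 windows, beside 1.06% of all, and the FOXO motif GTAAACA in 0, beside 3.65%. The STAT motif TTCNNNGAA was in 11 windows (14.3%; 8.3% of all) and the heat shock element GAANNTTC in 3 (3.9%; 7.86% of all). No window described here for the 5 called genes holds the E-box, D-box, FOXO, STAT or heat shock letters, which says only that these letters are not in these bases.

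Of the ligase core and Cand1, 4 genes in all, limma called none, 2 had an unadjusted p under 0.05 (Skp1 and Cand1), and the methods' t-test called Skp1. Cul1, the scaffold, read 405, 409 and 428 in Dnajb4+/+ and 406, 411 and 405 in Dnajb4-/- livers, a difference of -0.02 with a 95% interval of -0.12 to 0.07 (limma adjusted p = 0.739). Its arrays overlapped, and the interval, which covers only the spread between arrays, reached 0.12 downward on the log2 scale. Rbx1, the RING subunit, read 78.4, 73.8 and 67.5 against 84.7, 72.4 and 74.7, a difference of 0.08 (interval -0.11 to 0.26, adjusted p = 0.566), with the genotypes again overlapping.

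Skp1 and Cand1 lay above their Dnajb4+/+ arrays in every Dnajb4-/- array without being called. Skp1, the adaptor, read 3506, 3405 and 3459 in Dnajb4+/+ and 3669, 3832 and 3765 in Dnajb4-/- livers, a difference of 0.12 (SE 0.04, limma adjusted p = 0.0825). Its probe sets did not move alike: 1423149_at was called higher (0.21, adjusted p = 0.0463 over all probe sets), and 1423148_at differed by 0.03 (adjusted p = 0.679). Cand1, the exchange factor, read 68.5, 66.2 and 68.8 against 76.4, 76.4 and 71.9, a difference of 0.14 (interval 0.04 to 0.24, adjusted p = 0.0713). The difference came from its other 3 probe sets, since 1428648_at, at 423, 406 and 413 against 407, 434 and 393, differed by -0.01 (adjusted p = 0.919). Skp1 was called in 6 of 16 other processings of the same arrays and Cand1 in 2 of 16, and Cand1 with its brightest probe set alone stood at -0.01.

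None of the 10 WD40 F-box genes outside the chromosome 9 family was called by limma, with differences from -0.21 to 0.09. Of these, 2 had an unadjusted p under 0.05 (Fbxw5 at -0.21 and Fbxw7), and the methods' t-test called 0. Btrc and Fbxw11 encode the β-TrCP receptors, which recognise phosphorylated β-catenin, IκB and Per proteins. Btrc read 25.0, 26.6 and 26.5 in Dnajb4+/+ and 26.9, 26.6 and 26.5 in Dnajb4-/- livers, a difference of 0.03 (limma adjusted p = 0.620). This mean covers probe sets that lay apart in opposite directions without being called, 1417325_at at 0.20 (adjusted p = 0.0780) and 1425680_a_at at -0.19 (adjusted p = 0.125). Fbxw11 read 80.2, 77.3 and 81.5 against 83.9, 82.1 and 83.6, a difference of 0.06 (adjusted p = 0.338). Its mean covers 5 probe sets of very different signal, none of them called. The brightest, 1437468_x_at, of a kind that can read other genes, stood at 0.07 (limma adjusted p = 0.318), and 1425462_at at -0.03 (adjusted p = 0.728). The gene means overlapped for Btrc and lay apart for Fbxw11 by less than the test could call. Fbxw7, the receptor for cyclin E, Myc and Notch, read 124, 119 and 121 against 127, 131 and 129.5, a difference of 0.09 (adjusted p = 0.156). Its probe set 1451558_at was called higher (81.5, 83.3 and 81.3 against 92.6, 92.6 and 98.4, a difference of 0.20, adjusted p = 0.0325). The other, 1424986_s_at, overlapped between genotypes (-0.02, adjusted p = 0.866).

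On chromosome 9 lie 13 of the SCF genes, 9 of them close relatives of the WD40 class from Fbxw13 to Fbxw27. Fbxw21 and Fbxw13 are listed as neighbours there, as are Fbxw22, Fbxw16 and Fbxw19. The mean signals of these 9 genes ran from 6.36 to 40.3, all under the median signal of all genes, and the lowest value in the table was 3.90. None was called by limma or by the methods' t-test, with differences from -0.09 to 0.18 and an unadjusted p under 0.05 for 1 gene (Fbxw24, 0.17). Fbxw21 read 6.57, 6.17 and 6.97 against 6.46, 6.03 and 5.97 (adjusted p = 0.333), and Fbxw13 read 7.15, 6.68 and 7.61 against 7.09, 8.13 and 7.12 (adjusted p = 0.645). The lowest of these levels are near the floor of the array, where a difference would be hard to detect, and near-identical copies can share probes.

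The 17 leucine-rich repeat genes also held no gene called by limma or by the methods' t-test, with differences from -0.31 to 0.23. An unadjusted p under 0.05 was found for 6, 2 of them higher and 4 lower. Skp2, the receptor for the cell cycle inhibitor p27, read 27.0, 24.3 and 25.8 in Dnajb4+/+ and 25.4, 25.4 and 27.8 in Dnajb4-/- livers, a difference of 0.03 (limma adjusted p = 0.802). Fbxl5, which senses iron and removes the iron regulatory protein Ireb2, read 469.8, 452 and 467 against 447, 458 and 451, a difference of -0.03 (interval -0.12 to 0.05, adjusted p = 0.590). Both overlapped between genotypes. Fbxl21, a receptor for the clock repressors Cry1 and Cry2, read 25.1, 24.2 and 27.1 against 30.4, 29.7 and 27.2, a difference of 0.19 whose arrays did not overlap (adjusted p = 0.0835). Fbxl2, among the dimmest genes, read 6.58, 7.46 and 7.55 against 7.46, 6.16 and 7.35 (-0.04, adjusted p = 0.782).

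Several leucine-rich repeat genes came close to the threshold and are named here after their values were seen. Fbxl15, a receptor for the ubiquitin ligase Smurf1, read 198, 167 and 194 against 138, 151 and 161, a difference of -0.31 (SE 0.08, limma adjusted p = 0.0511). Fbxl13, a dim gene, read 13.1, 12.8 and 13.4 against 11.7, 10.7 and 12.0, a difference of -0.20 (SE 0.05, adjusted p = 0.0516). For both genes every Dnajb4-/- array lay below every Dnajb4+/+ array. In the other direction, Fbxl19, whose protein binds unmethylated CpG islands, read 33.7, 34.2 and 31.6 against 42.6, 38.8 and 35.6, a difference of 0.23 (adjusted p = 0.0784).

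Fbxl17 and Fbxl20 had probe sets that moved apart within the gene. Fbxl17 takes apart wrongly paired BTB-domain dimers, and its probe set 1452860_at read 395, 396 and 420.5 in Dnajb4+/+ and 296, 305 and 322 in Dnajb4-/- livers, called lower at -0.39 (limma adjusted p = 0.00503). Its probe set 1430241_at read 91.4 to 96.8 in Dnajb4+/+ and up to 103 in Dnajb4-/- livers, a difference of 0.10 (adjusted p = 0.224). Averaged, Fbxl17 stood at -0.15 (adjusted p = 0.0631). For Fbxl20, 1456378_s_at read 632, 622 and 610.2 against 806, 775 and 764, called higher at 0.33 (adjusted p = 0.00503). This probe set is of a kind that can read several transcripts, and without such probe sets Fbxl20 stood at -0.04 (limma adjusted p = 0.699). The remaining 3 probe sets of Fbxl20 differed by 0.04, -0.12 and -0.12 and were not called, and the gene stood at 0.03 (adjusted p = 0.618). Which transcript forms these probe sets read was not tested.

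All 5 called genes belong to the 33 F-box genes of other domain types, where they make up 15.2%, near the 14.7% of all genes. Fbxo31, which removes cyclin D1 after DNA damage, had the largest difference of all SCF genes. It read 492, 473 and 507 in Dnajb4+/+ (490.5 ± 17.1, SD, n = 3) and 349, 352 and 364 in Dnajb4-/- livers (355 ± 7.47), with every Dnajb4-/- array below every Dnajb4+/+ array. The difference was -0.47 (SE 0.04, interval -0.57 to -0.36, limma adjusted p = 7.69e-04), a 1.38-fold lower level. Its probe sets gave nearly the same value: 1417969_at at -0.47 (adjusted p = 0.00195) and 1428926_at at -0.46 (adjusted p = 0.00240). Fbxo31 was called in 16 of 16 other processings, with a highest adjusted p of 0.00737. Cyclin D1 RNA, from Ccnd1, was lower too, at 296, 291 and 299 against 178, 186 and 192 (-0.67, adjusted p = 1.58e-04), a gene named here after its values were seen. The cyclin D1 protein was not measured.

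Fbxo34 was lower by a smaller amount and with little spread. Its probe set read 414, 409 and 420.3 in Dnajb4+/+ (415 ± 5.68, SD, n = 3) and 348, 349 and 339 in Dnajb4-/- livers (346 ± 5.73). The arrays lay well apart, at a difference of -0.26 (SE 0.04, interval -0.35 to -0.18, limma adjusted p = 0.00446). Fbxo34 has 1 probe set, of a kind that can read several transcripts of a gene, and was called in 15 of 15 other processings (highest adjusted p = 0.0332).

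Fbxo21, the receptor for the transcriptional inhibitor Eid1, read 418, 395 and 405 in Dnajb4+/+ (406 ± 11.5, SD, n = 3) and 342, 342 and 359.6 in Dnajb4-/- livers (348 ± 10.1). The groups did not overlap, and the difference was -0.22 (SE 0.04, interval -0.32 to -0.12, limma adjusted p = 0.0153). Both of its probe sets were called lower, at -0.24 and -0.20 (adjusted p = 0.0327 and 0.0295). The call was lost without Dnajb4+/+ replicate 1 (adjusted p = 0.0609), Dnajb4-/- replicate 1 (0.0535) or Dnajb4-/- replicate 2 (0.0572). It was also lost with the replicate number as a block.

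Fbxo9, which removes the Tel2 and Tti1 partners of mTOR when growth factors are withdrawn, read 582, 559 and 567 in Dnajb4+/+ (569 ± 12.0, SD, n = 3) and 496, 514 and 503 in Dnajb4-/- livers (504 ± 9.26). The difference was -0.18 (SE 0.04, interval -0.27 to -0.08, limma adjusted p = 0.0256), without overlap. It rested mainly on 1432211_a_at (-0.21, adjusted p = 0.0305), while 1417480_at stood at -0.14 (adjusted p = 0.112). The call was lost without Dnajb4+/+ replicate 1 (adjusted p = 0.0927) or 3 (0.0713) and without Dnajb4-/- replicate 1 (0.0754), 2 (0.0562) or 3 (0.0764). It was also lost with the brightest probe set alone (0.0801), without 1432211_a_at (0.108) and with the replicate number as a block.

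Ccnf was the SCF gene called higher. Cyclin F is a receptor that accumulates in the G2 phase and removes the ribonucleotide reductase subunit Rrm2 and the centriole protein Ccp110. It read 71.1, 73.8 and 80.1 in Dnajb4+/+ (75.0 ± 4.59, SD, n = 3) and 88.6, 111 and 92.9 in Dnajb4-/- livers (97.5 ± 11.9), so that the genotypes did not overlap but replicate 2 stood above the other Dnajb4-/- arrays. The difference was 0.37 (SE 0.09, interval 0.16 to 0.59, limma adjusted p = 0.0364). Most of it came from 1443807_x_at, of a kind that can read other genes (0.50, adjusted p = 0.0393), and 1422513_at stood at 0.24 (adjusted p = 0.0620). The call was lost without Dnajb4+/+ replicate 1 (0.109), 2 (0.0918) or 3 (0.0574) and without Dnajb4-/- replicate 2 (0.0530) or 3 (0.0688). It was also lost with the brightest probe set (0.0504) and without probe sets of the kinds that can read several transcripts (0.0593). The methods' t-test (0.132) and the replicate number as a block (0.0562) did not call Ccnf either.

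**Figure D2:**
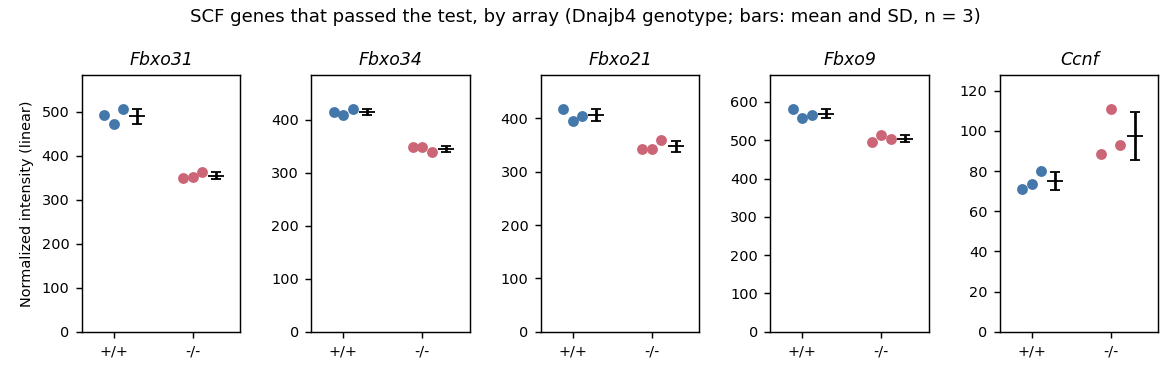
Normalized intensity (linear scale, y axis from 0) of the 5 called SCF genes in each of the 6 liver arrays, by Dnajb4 genotype, with bars for the mean and SD (n = 3). For Fbxo31, Fbxo34, Fbxo21 and Fbxo9 every Dnajb4-/- point lies below every Dnajb4+/+ point, and for Ccnf every Dnajb4-/- point lies above, with 1 array at 111.

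Among receptors with a well-known role that were not called, Fbxo32 encodes atrogin-1, which degrades muscle proteins in atrophy. It read 39.3, 35.9 and 40.0 in Dnajb4+/+ and 35.2, 41.6 and 41.7 in Dnajb4-/- livers, a difference of 0.04 with an interval of -0.15 to 0.23 (limma adjusted p = 0.795). Fbxo5, or Emi1, restrains the anaphase-promoting complex and read 30.2, 45.8 and 30.4 against 25.5, 32.1 and 25.7, a difference of -0.33 whose wide error (SE 0.17, adjusted p = 0.258) comes with replicate 2 reading highest in both genotypes. With each array left out in turn, the Fbxo5 difference ranged from -0.44 to -0.13.

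Fbxo4, a receptor for cyclin D1 and the telomere protein Trf1, stood at -0.05 (50.2, 48.4 and 52.1 against 47.5, 48.6 and 49.4, limma adjusted p = 0.496). Fbxo11, the receptor for Bcl6, stood at 0.11 (231, 213 and 208 against 227, 246 and 230.2). Fbxo8, which carries a Sec7 domain and acts on Arf6, stood at 0.00 with an interval of -0.09 to 0.10 (1046, 1019 and 1075 against 1035, 1073 and 1038). In these 3 genes the arrays overlapped. The dim genes Fbxo15, known from embryonic stem cells, and Fbxo16 stood at -0.02 and 0.10, with readings of 6.46 to 8.30 and 6.71 to 9.28 over the 6 arrays. Fbxo40, a muscle F-box gene, was not analysed here.

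A group of F-box proteins that share a sugar-binding domain for misfolded glycoproteins lies in 2 clusters, Fbxo6, Fbxo44 and Fbxo2 as neighbours on chromosome 4 and Fbxo27 beside Fbxo17 on chromosome 7. Limma called none of these 5 genes, and the methods' t-test called Fbxo6, which alone had an unadjusted p under 0.05. The only one whose arrays did not overlap was Fbxo6, at 203, 208 and 201 against 217, 221 and 221 (0.11, limma adjusted p = 0.0963). Fbxo2 stood at 0.21, Fbxo27 at 0.07, Fbxo17 at 0.02 and Fbxo44 at -0.02, all within the spread of their arrays. This group was picked after the values were seen.

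Of the 135 probe sets, 12 were called when fitted one by one over all 34945 probe sets with a single symbol, 5 higher and 7 lower. This is 8.89% of the SCF probe sets, beside 13.5% of all. Of the 31 SCF genes with more than 1 probe set, none had probe sets called in opposite directions. Skp1, Fbxw7, Fbxo3, Fbxl17 and Fbxl20 each had 1 called probe set without the gene being called. In Fbxo3, which removes the receptor Fbxl2, that probe set was 1455047_at (575, 565 and 574 against 654, 642 and 694, a difference of 0.21, limma adjusted p = 0.0303), and the other 4 differed by -0.08 to 0.16.

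**Figure D3:**
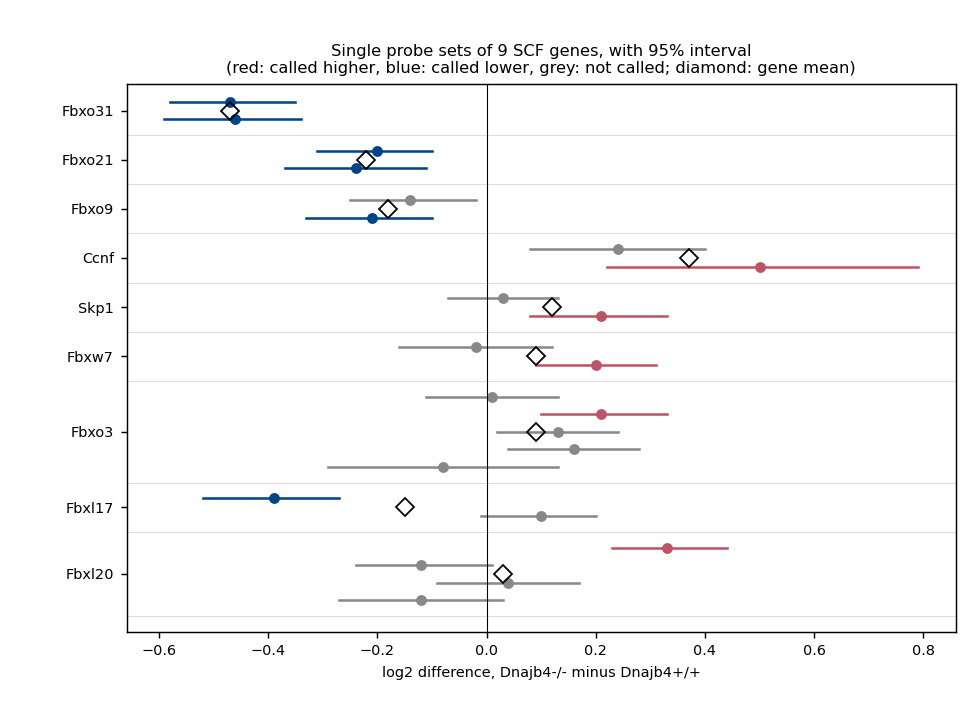
Log2 difference between genotypes (Dnajb4-/- minus Dnajb4+/+, x axis) for each probe set of 9 SCF genes with several probe sets, with bars for the 95% interval (limma, n = 3 per genotype) and a diamond for the mean over the gene's probe sets. The probe sets of Fbxo31 lie together near -0.47, whereas those of Fbxl17 (-0.39 and 0.10) and Fbxl20 (0.33 to -0.12) lie on both sides of 0.

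Genes that work with the SCF ligase were counted beside the 14.7% called over all genes. Of 22 measured genes that attach Nedd8 to cullins or remove it, 1 was lower and 21 were not called (4.55%). The lower gene was Dcun1d4, an attachment factor, at 321, 330.4 and 331 against 282, 289 and 281 (-0.21, limma adjusted p = 0.0119). Of 11 E2 enzymes and accessory factors, 2 were lower and 9 were not called (18.2%). The 11 include the deubiquitinases Usp2 and Usp28, and Usp2 is also in the clock list. Ube2d1, an E2 enzyme used with SCF ligases, read 112, 113 and 118 against 75.3, 81.5 and 83.6 (-0.51, adjusted p = 0.00115). Usp2, a deubiquitinase that also follows the circadian clock, read 675, 705 and 713 against 141, 174 and 164 (-2.14, adjusted p = 1.59e-05). Both genes lay apart between genotypes by far more than the spread of their arrays.

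Among 19 genes of other cullin ligases, 3 were higher and 2 lower (26.3%). The scaffolds Cul5 and Cul2 read 147, 133 and 140.4 against 166, 182 and 172 (0.31, limma adjusted p = 0.0108) and 180.4, 172 and 179.8 against 206, 219.7 and 207 (0.25, adjusted p = 0.0117). The third higher gene was Dcaf1, a receptor of Cul4 ligases (0.17, adjusted p = 0.0482). Ddb2, which recognises damaged DNA for a Cul4 ligase, was lower at 56.6, 55.4 and 62.4 against 43.7, 48.9 and 42.0 (-0.38, adjusted p = 0.0160). Kctd13, an adaptor of Cul3, was lower by 0.32 on the log2 scale (adjusted p = 0.00263). The difference between these cullins and Cul1 was not tested.

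The genes of known SCF substrates were called far more often than the ligase genes: of 32 measured, 5 were higher and 14 lower (59.4%), with the difference between the lists not tested. Their median Dnajb4+/+ signal was 108, beside 67.8 for the SCF genes. Over all genes, 23.6% of those above the median signal and 5.75% of the others were called. The part of signal level in this contrast was not tested. These lists were written with earlier results of these data known. Higher were Cdkn1a (p21, a substrate of Skp2), Bcl6, Myc, Cry1 and Notch1. Among the 14 lower was Cdkn1b, which encodes p27 (-0.34, limma adjusted p = 0.00676). The cyclin E genes Ccne2 (-0.86, adjusted p = 0.00386) and Ccne1 (-0.36, adjusted p = 0.0431) were lower too. Genes of Skp2 and Fbxw7 substrates were thus called in both directions, with these lower ones named after their values were seen. Cdkn1a read 131, 136 and 129 in Dnajb4+/+ and 403, 434 and 452 in Dnajb4-/- livers (1.70, limma adjusted p = 6.21e-06), and Bcl6, the substrate of Fbxo11, read 66.9, 62.4 and 60.2 against 135, 138 and 137 (1.12, adjusted p = 2.62e-05). Wee1, an inhibitor of mitotic entry, read 113, 89.6 and 105 against 36.2, 39.4 and 39.8 (-1.41, adjusted p = 1.46e-04), and Per1, a clock repressor recognised by β-TrCP, read 334, 317 and 313 against 154, 155 and 164 (-1.03, adjusted p = 3.16e-05). All these are RNA levels, and the receptors named with them were not called. Per1, Per2, Cry1 and Cry2 of this list are also in the clock list and Bcl6 is in the male-high list. Cdkn1a and Foxo1 are also in the list of atrophy and FOXO-linked genes given below, so these lists are not separate observations.

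Substrates of Ccnf and Fbxl5 are given here as well, picked after their values were seen. Rrm2, the substrate of cyclin F, read 91.6, 93.5 and 94.2 against 87.8, 89.7 and 88.7 (-0.07, limma adjusted p = 0.248). Ccp110 read 65.4, 59.2 and 66.7 against 53.7, 54.9 and 56.9 (-0.21) and just missed the threshold, so it was not called. Ireb2, the substrate of Fbxl5, was lower at 838, 831 and 821 against 744, 762 and 748 (-0.14, adjusted p = 0.0388).

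**Figure D4:**
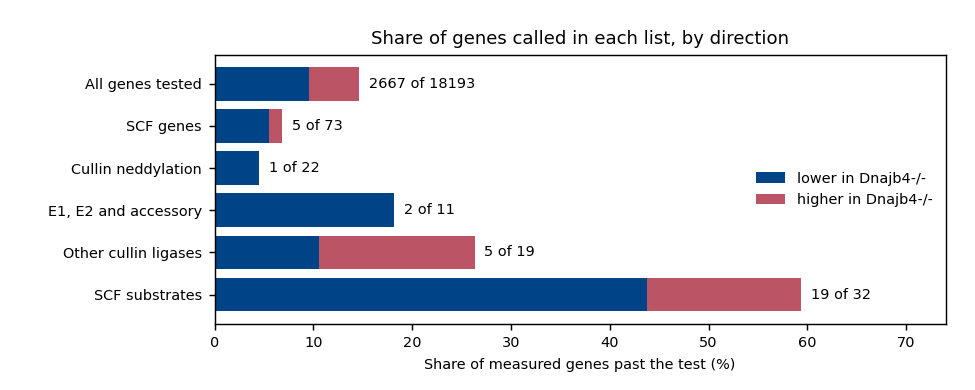
Share of measured genes that passed the test (x axis, percent of each list), split into genes lower and higher in Dnajb4-/- livers, for all genes, the SCF genes and 4 related lists, with the number called of the number measured beside each bar. SCF genes (5 of 73) lie below all genes tested (2667 of 18193), and SCF substrates (19 of 32) reach the highest share of these lists, which were not matched for signal.

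A list of genes linked to FOXO factors and to the muscle atrophy program of Fbxo32 had calls in both directions. Of 16 measured beside the F-box genes, 2 were higher and 4 lower (37.5%, beside 14.7% of all genes), and 14 means were lower. The list also holds Foxo1, Foxo3 and Foxo4 themselves and genes of liver metabolism such as G6pc. Cdkn1a and the glucose-6-phosphatase gene G6pc (0.32) were higher, and the mitophagy gene Bnip3 (-0.43) and the transcription factor Klf15 (-0.43) were among the lower. Fbxo31, Fbxo21 and Fbxo30 are known from the same atrophy program: Fbxo31 and Fbxo21 were lower as given above, and Fbxo30 stood at -0.05 (limma adjusted p = 0.701). Skeletal muscle markers moved with the genotype in these arrays. Of 18 measured, 13 were lower and 5 were not called, with a summed signal of 1001 to 1056 in Dnajb4+/+ and 541 to 565 in Dnajb4-/- livers, led by Tnnc2 (113 against 23.8) and Acta1 (219 against 51.0), while Ttn (12.6 against 11.9) and Casq1 (15.3 against 14.3) were dim in both. The part of muscle RNA in the lower F-box genes was not tested.

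Other marker lists moved as well, and in bulk liver fewer cells of a type and less RNA per cell cannot be told apart. Kupffer cell and macrophage markers were lower for 7 of 8 genes (summed signal 4378 to 4589.7 against 3345 to 3499) and endothelial markers for 4 of 6 (1195 to 1233 against 1027 to 1089). Neutrophil markers were lower for 2 of 6 (244 to 256 against 206 to 219), stellate cell and fibroblast markers for 1 of 8 (815 to 822 against 738 to 770.3) and lymphocyte markers for 1 of 9 (247 to 249 against 246 to 249.5). Of the cholangiocyte markers 1 of 5 was higher (132 to 148 against 151 to 157), and of 3 erythroid markers 0 were called by limma, at an unadjusted p under 0.05 or by the methods' t-test (1480.3 to 1514 against 1439 to 1494). No defining marker was listed at 0, since the table has a floor. The part of these cells in the SCF differences was not tested.

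Sex-biased and clock genes also moved with the genotype. All 11 measured female-high liver genes were lower in Dnajb4-/- livers, led by Sult3a1 (4498 against 34.8) and Cyp2b9 (997 against 21.4). Of 10 male-high genes, 8 were higher, 1 was lower and 1 was not called, led by Elovl3 (3187 against 7562). Of 19 clock genes, 5 were higher and 12 lower, led by Dbp (1722 against 208), and Arntl, which encodes Bmal1, read 41.1 against 97.1. Beside these, the clock-linked receptors stood at 0.03 for Btrc as the mean of its diverging probe sets, 0.06 for Fbxw11 and 0.19 for Fbxl21, none of them called. The time of day of tissue collection is not given in the sources used here, and the part of sex and time in the SCF differences was not tested.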

How the data were processed

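Total RNA from the livers was measured on Affymetrix arrays of the Mouse Genome 430 2.0 type. In GeneSpring, the authors applied GCRMA (version not given in the sources used here), a method that subtracts background according to probe GC content and returns 1 value per probe set, followed by global median centring. The deposited values are these normalized intensities on a linear scale; scanner files and detection calls were not used here. Of 45101 probe sets, 64 controls were left out, and GEO's platform annotation gave 34945 of the rest a single symbol. Counted with the controls included, 932 had several symbols and 9211 none. Log2 values were averaged over the probe sets of each gene (18193 genes; no filter on dim genes), and the genotype difference was fitted with limma 3.58.1 under R 4.3.3 (lmFit and eBayes, two-sided, Benjamini-Hochberg over all genes, threshold 0.05). Averaging probe sets of a gene can hide or dilute a difference that 1 of them shows, so single probe sets were fitted too, over all probe sets of a single symbol. Groups and replicate numbers came from the labels. The procedure was tested on simulated data. Promoter windows and gene positions came from RefSeq on GRCm38.p6, where all 73 genes were found by gene identifier. Plots used matplotlib 3.10.9 under python 3.11.15.

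Named in the text are the called SCF genes, the parts and best-known receptors of the ligase, and the 5 SCF genes with the highest and the 5 with the lowest mean signal. SCF genes with a called probe set were added to these. Up to 4 called genes of most other lists are named, and more for other cullin ligases and SCF substrates. Further genes were picked after their values were seen, most of them marked so. The lists cover cullin neddylation, E2 enzymes and accessory factors, other cullin ligases, SCF substrates, atrophy and FOXO-linked genes, female-high and male-high liver genes, clock genes, and markers of hepatocytes, skeletal muscle, Kupffer cells and macrophages, lymphocytes, neutrophils, stellate cells and fibroblasts, cholangiocytes, erythroid and endothelial cells. Members and lists were chosen with earlier results of these data known. The 16 alternatives were another normalization, centring, signal filter, gene-level value (3 forms), an offset of 16, a variance trend, the methods' t-test, a replicate block and each of 6 arrays left out.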

Additional observations from a re-analysis of the deposited data

How the results depend on the processing

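The 5 calls among the SCF genes (1 higher, 4 lower) were recomputed under 16 alternatives, and only Fbxo31 and Fbxo34 were called under every one that could be run for them. More SCF genes, and a larger share of all genes, were called with quantile normalization (5 higher, 5 lower, 10 in all or 13.7%, beside 15.7% of all genes), with arrays centred on their brighter probe sets (5, 4 and 9; 12.3% beside 16.4%), with genes above the median signal only (5, 7 and 12 of 43; 27.9% beside 35.7%), with the linear mean of probe sets (3, 7 and 10; 13.7% beside 19.0%), with the offset of 16 (4, 7 and 11; 15.1% beside 19.8%) and with a variance trend (2, 7 and 9; 12.3% beside 19.5%). The methods' t-test called 2 higher (Fbxo6 and Skp1, not Ccnf) and the same 4 lower. With the brightest probe set, Fbxl20 in place of Ccnf was the higher gene, and Fbxl17 in place of Fbxo9 was among the 4 lower. Dropping the probe sets that match more than 1 transcript left 67 genes, of which 3 were called, 1 higher (Fbxw7, not Ccnf) and 2 lower (Fbxo21 and Fbxo31). Leaving out 1 array gave 0 to 1 higher, 2 to 6 lower and 2 to 7 called. The count was 2 without Dnajb4+/+ replicate 1 or Dnajb4-/- replicate 2, 3 without Dnajb4+/+ replicate 3 or Dnajb4-/- replicate 1, 5 without Dnajb4-/- replicate 3 and 7 without Dnajb4+/+ replicate 2. With the replicate number as a block, 2 genes were called (0 higher and 2 lower, Fbxo31 and Fbxo34). Deviations from the group means correlated across genes with r of -0.02, -0.14 and 0.01 between arrays of the same number. Between arrays of different number, r ran from -0.10 to 0.12. Genes are not independent replicates, and deviations within a group of 3 depend on each other, so these values cannot exclude a pairing. The labels state no pairing. Over all genes, 34.7% of calls were higher in the fit described above, 44.6% with quantile normalization and 50.5% with centring on brighter probe sets; the median of all genes moved to at most 0.0397. The 28 named SCF genes gave 436 gene and alternative pairs, of which 398 kept their side of the threshold, 21 lost a call, 17 gained one and none reversed a called direction, while 13 genes changed sign without being called. The cause of these changes was not tested. Genes near the floor of the array have little room to show a difference.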
